A study of Mus musculus with 12 samples.

Results

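The annexin genes *Anxa1*, *Anxa2*, *Anxa3*, *Anxa4*, *Anxa5*, *Anxa6*, *Anxa7* and *Anxa11* were followed through 4 weeks of dexamethasone (DEX), a synthetic glucocorticoid, and through recovery from it, in sorted *Pomc*-eGFP cells of the mouse pituitary. They were chosen by gene symbol, and all 8 were found among the 55304 genes of the expression table. All 8 also passed the filter that left 24736 genes for testing, a value above 0.1 in at least 3 libraries. The other 4 annexin genes of the table, *Anxa8*, *Anxa9*, *Anxa10* and *Anxa13*, are described with the related genes further on.

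Annexins are cytosolic proteins that bind acidic phospholipids when calcium rises, and they take part in membrane traffic, membrane repair and secretion. Annexin A1, once called lipocortin, is known as a mediator of glucocorticoids: glucocorticoids raise its production in many cells, it limits phospholipase A2 activity, and outside the cell it acts through formyl peptide receptors. In the anterior pituitary, annexin A1 is best known from the folliculostellate cells, a glia-like supporting cell type, from where it passes on the early inhibitory effect of glucocorticoids on ACTH release by neighbouring corticotrophs.

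RNA was sequenced from 12 libraries in 4 groups of 3. All came from adult male mice that carried eGFP under control of the *Pomc* promoter on a C57Bl6/J background. The control group drank plain water, the DEX group drank 2.5 µg/ml DEX for 4 weeks, and the remaining groups were taken 7 days (1 week) and 28 days (4 weeks) after the same treatment had stopped. Each library was made from the fluorescent cells of a pool of anterior pituitaries, so the replicates were pools and not mice. The p-values refer to the spread between pools. The main test, limma, draws the spread of each gene towards that of genes at a similar level. The groups are limited as a model in that the promoter that drives eGFP belongs to a gene that glucocorticoids repress, and in that the RNA was below the limit of detection before amplification. In pooled RNA of this kind, fewer cells of a type and less RNA per cell cannot be told apart.

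The libraries held 7719894 to 12848078 reads on genes. Values are normalised read counts, that is CPM of a library size the authors had rescaled, and 1 read was worth 0.0787 to 0.127. Counting kept 1 strand while the kits did not mark strand, so reads of the other strand may be uncounted, and read counts, depths and zeros refer to counted reads. *Pomc*, the ACTH precursor and defining gene of the sorted cells, took 0.454% of the reads in the lowest DEX pool and 20% in the highest 1 week pool, whereas *Gh*, the growth hormone gene of somatotrophs, took 8.20% to 22.9% and exceeded *Pomc* in 10 of the 12 libraries. The label of corticotrophs therefore covers RNA of other cells as well. Some other corticotroph markers went the other way from *Pomc* with DEX. *Tbx19* had means of 302 in control and 919 with DEX, and *Avpr1b* 32.6 and 100.4. Of 7 corticotroph markers, these 2 lay above and *Pomc* below all control pools, where 12.8% of all genes tested did not overlap. A positive log2 fold change was found in 4 of the 7, and limma called 0. The summed level of 4 melanotroph markers was between 40.7 and 151, that of 5 erythroid markers between 0.979 and 49.6, and that of 9 genes induced by cell dissociation between 10816 and 21692. The 1 week group stood apart by its spread, with 20% *Pomc* in pool 2 and 4.33% in pool 3, and the members' 1 week differences below are also given without pool 2 or pool 3 where this moved them by over 1.5 times. The authors' rescaling multiplied the library size of pool 2 by 0.702, against 0.863 to 1.21 in the other libraries. Its top 10 genes took 46.2% of its reads. A factor below 1 raises every normalised count of a library, so a highest value in this pool depends in part on the rescaling.

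The sequences just upstream of 3 members are shown because *Anxa1* is the member known as a glucocorticoid target, *Anxa2* lay higher 4 weeks after DEX than in control and DEX pools, and *Anxa5* was the most abundant member. Each runs from 40 to 11 bases before the start site given by RefSeq (GRCm38.p6), 5′ to 3′ on the strand of the gene. Matches to the letters of a TATA box (TATAAA, searched on both strands) are in capitals.
*Anxa1*, chr19:20390682-20390711, minus strand: tcatatccTATAAAatcaggagtccaaccc
*Anxa2*, chr9:69453643-69453672, plus strand: tcgcgctgggaggatggggcgggTATAAAa
*Anxa5*, chr3:36475898-36475927, minus strand: cgcaggagcatagaggctaggacgtggcag
*Anxa1* and *Anxa2* held these letters, and *Anxa5* did not. The match began at -32 from the start site in *Anxa1* and at -17 in *Anxa2*, so the 2 differ in position. Of 32851 promoters of the RefSeq table, 12.4% held this motif within 250 bases of the start. The half-site of the glucocorticoid receptor, AGAACA on either strand, was present in 16.1% of these promoters. Promoters were listed for 6 of the 8 members (not *Anxa3* or *Anxa6*), and the only matches to the half-site among them were 2 in 1 of the alternative promoters of *Anxa4*. These matches are letters only, and no binding was measured.

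Divided by the length of exon in the annotation, the members fell into an abundant, an intermediate and a scarce group. *Anxa5*, a phosphatidylserine binding protein, had by far the highest level, 424 ± 92.4 (SD, n = 12 libraries) normalised counts per kb, which was 74.9% of the sum over the 8 members. *Anxa6*, which has a doubled annexin core and binds membranes of the secretory and endocytic pathways, followed with 86.8 ± 26.4 per kb. *Anxa2*, *Anxa7* and *Anxa4* came next with 23.1 ± 6.2, 16.6 ± 1.94 and 12.7 ± 2.46 per kb. *Anxa1* had 1.28 ± 0.592 per kb, *Anxa3* 1.02 ± 0.462 and *Anxa11* 0.923 ± 0.419, so the glucocorticoid mediator was among the 3 members with the least RNA. The ranges over libraries were separate between *Anxa5* and *Anxa6*, between *Anxa6* and *Anxa2* and between *Anxa4* and *Anxa1*. The order of *Anxa2* and *Anxa7* held in 10 of 12 libraries, as did that of *Anxa7* and *Anxa4*. It was mixed for *Anxa1* over *Anxa3* (7 of 12) and for *Anxa3* over *Anxa11* (6 of 12). These lengths, 1.78 kb for *Anxa5* to 5.99 kb for *Anxa7*, count every annotated exon base and are upper limits for the length of a transcript.

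**Figure D1:**
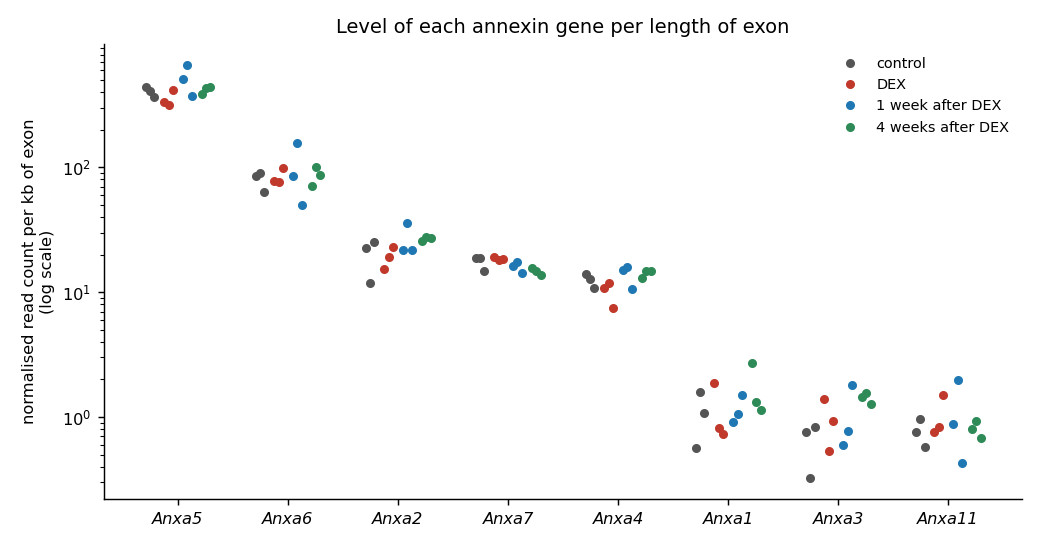
Normalised read count per kb of exon on a log scale for each of the 8 annexin genes, ordered by their mean, with 1 point per library and colours for the 4 groups. *Anxa5* lay between 316 and 664 in every library, and *Anxa1*, *Anxa3* and *Anxa11* were at most 2.73.

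None of the 8 members passed the test in any comparison. In the F test over the 4 groups (limma, Benjamini-Hochberg adjusted p under 0.05), 0 of 8 members were called against 0.315% of all genes tested, and 0 of 8 had an unadjusted p under 0.05 against 9.21%. On the reads recovered from the values, DESeq2 and both edgeR tests (quasi-likelihood, likelihood ratio) also called 0 of 8 in the F test and in each of the 6 comparisons between groups. Over all of these, the lowest adjusted p of a member was 0.497 by limma, 0.493 by edgeR's quasi-likelihood test, 0.545 by its likelihood ratio test and 0.198 by DESeq2. A p that misses the threshold does not show that the groups were alike, so the interval of each difference is given. Of 48 differences (8 members in 6 comparisons), 46 had a 95% interval that included 0. For *Anxa6* and *Anxa7* all 6 intervals lay within a 2-fold difference in either direction, and for *Anxa5* 5 of 6 did. For *Anxa1*, *Anxa3* and *Anxa11*, 0 of 6 did, so none of the intervals of these scarce transcripts excluded a 2-fold difference in both directions.

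**Figure D2:**
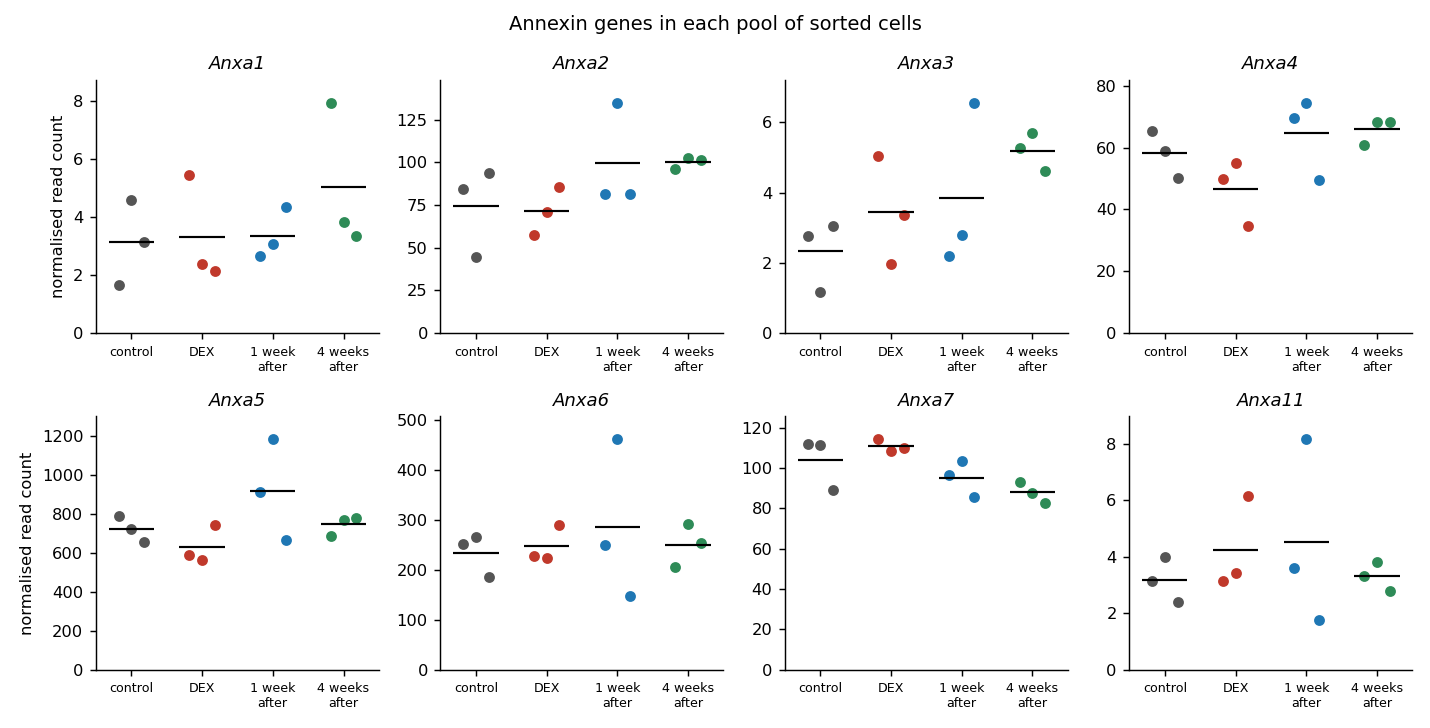
Normalised read count of each annexin gene in each of the 12 pools, with the group on the horizontal axis, 3 points per group in the order of their pool numbers, and a line at the group mean. The 3 pools 4 weeks after DEX lay above all control pools for *Anxa2* and *Anxa3*. A single 1 week pool, pool 2, had the highest normalised count of *Anxa2*, *Anxa4*, *Anxa5*, *Anxa6* and *Anxa11*. It was also the library whose size was scaled down the most (factor 0.702).

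*Anxa1* (chr19:20373428-20390944, GRCm38, minus strand) had 1.65, 4.59 and 3.15 normalised counts in control pools 1 to 3, and 5.47, 2.37 and 2.13 in the DEX pools. One week after DEX it had 2.66, 3.06 and 4.34, and 4 weeks after DEX 7.95, 3.83 and 3.34. Every group overlapped every other. These values rest on 19 to 86 reads per library. The log2 fold change with DEX was 0.07 (SE 0.521, 95% interval -1.04 to 1.17, limma adjusted p = 0.993), so the interval ran from 0.486-fold to 2.25-fold of control. Against control it was 0.18 (-0.93 to 1.28, limma adjusted p = 1) at 1 week, and -0.02 without pool 3 of that group. At 4 weeks it was 0.67 (-0.43 to 1.78, limma adjusted p = 0.890). Pool 1 set much of the mean in 2 groups, as the highest of the DEX pools and the highest of all 12. With each library left out in turn, the difference with DEX ranged from -0.35, without DEX pool 1, to 0.39, without control pool 2. The difference at 4 weeks from control ranged from 0.29, without control pool 1, to 1.00, without control pool 2.

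Other glucocorticoid targets were measured in the same libraries. *Fkbp5*, a co-chaperone of the glucocorticoid receptor, had 80.8, 86.8 and 106 normalised counts in control, 545, 230.1 and 354 with DEX, 72.1, 19.5 and 68.3 at 1 week and 100.2, 133 and 129.7 at 4 weeks. It changed over the 4 groups (limma F test, adjusted p = 0.0229). *Tsc22d3*, which encodes the anti-inflammatory factor GILZ and is likewise a direct target in many cells, had group means of 97.4, 112, 99.8 and 126 in the same order (limma F test, adjusted p = 0.873). Of 12 glucocorticoid targets listed, all tested, limma called 0 with DEX against control (0.121% of all genes). At an unadjusted p under 0.05 (6.8% of all genes), 2 were higher and 0 lower. These were *Fkbp5*, by 1.96 on the log2 scale (adjusted p = 0.0971 by limma, 0.0578 by edgeR's quasi-likelihood test, 4.41e-06 by its likelihood ratio test and 0.00114 by DESeq2), and *Zbtb16*, a zinc finger transcription factor, by 0.90 (limma adjusted p = 0.554). In the opposite direction, 3 of the 12 lay below all control pools with DEX (12.8% of all genes did not overlap, in either direction). These were the metallothionein genes *Mt1*, at 2916 to 3698 against 4267 to 4398 in control, and *Mt2*, at 564 to 651 against 722 to 1025, and the NF-κB inhibitor gene *Nfkbia*, at 127 to 133 against 164 to 187 (limma adjusted p = 0.906, 0.890 and 0.827). Against DEX, limma called 2 of the 12 lower at 1 week (0.433% of all genes), *Fkbp5* by -2.95 (adjusted p = 0.00581) and *Zbtb16* by -1.66 (adjusted p = 0.0372). At 4 weeks (0.873% of all genes) it called *Zbtb16* alone, by -1.55 (adjusted p = 0.0401).

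*Anxa2* (chr9:69453620-69491795, plus strand) forms a tetramer with S100A10 at the plasma membrane and takes part in exocytosis. It had 84.3, 44.5 and 93.5 normalised counts in control, 57.2, 71.0 and 85.4 with DEX, 81.5, 135 and 81.6 at 1 week, and 96.2, 103 and 101 at 4 weeks. The 4 week pools were close to each other and above all control and all DEX pools. The log2 fold change at 4 weeks was 0.50 against control (SE 0.297, -0.13 to 1.14, limma adjusted p = 0.842) and 0.51 against DEX (-0.12 to 1.14, limma adjusted p = 0.651). An exact permutation test gave p = 0.1 in both, two-sided, which is the smallest that 3 pools against 3 allow. DEX itself differed from control by -0.01 (-0.64 to 0.63). The 1 week group differed from control by 0.45 (-0.18 to 1.08), and by 0.21 without its pool 2, the highest library. Control pool 2 was the lowest library, and without it the difference at 4 weeks from control was 0.17.

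*Anxa3* (chr5:96793339-96845966, plus strand), another phospholipid binding member, showed the largest difference of the 8. It had 2.75, 1.18 and 3.04 normalised counts in control, 5.05, 1.96 and 3.36 with DEX, 2.19, 2.80 and 6.56 at 1 week and 5.27, 5.69 and 4.60 at 4 weeks. All pools at 4 weeks lay above all control pools. The log2 fold change was 1.22 (SE 0.525, 0.11 to 2.34), or 2.34-fold, with an unadjusted p of 0.0335 and an adjusted p of 0.754 by limma, and 0.1 by the exact permutation test. With DEX it was 0.56 (-0.55 to 1.68) and at 1 week 0.65 (-0.47 to 1.76). Pool 3 was the highest library and carried the 1 week value, which was 0.19 without it. At most 61 and as few as 10 reads per library stood behind these values. Leaving out each library in turn moved the 4 week difference between 0.81 and 1.46.

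*Anxa4* (chr6:86736840-86793584, minus strand) binds the membranes of epithelial and secretory cells. Its values were 65.5, 59.0 and 50.3 in control, 49.8, 54.9 and 34.8 with DEX, 69.7, 74.6 and 49.7 at 1 week and 60.9, 68.4 and 68.5 at 4 weeks. The DEX group had the lowest mean, and the 4 week pools lay above all DEX pools. That difference was 0.53 on the log2 scale (SE 0.246, 0.005 to 1.05), with an unadjusted p of 0.0482 and an adjusted p of 0.497 by limma, and it was 0.33 without DEX pool 3, the lowest library. Against control, *Anxa4* differed by -0.34 with DEX (-0.87 to 0.18), 0.14 at 1 week (-0.39 to 0.66, with 0.02 without pool 2 and 0.31 without pool 3) and 0.18 at 4 weeks (-0.34 to 0.71). A lincRNA on the opposite strand, *Gm44036*, shares 75 bases of exon with *Anxa4* and had a mean of 9.04. The library kit did not mark strand, so reads of the shared bases cannot be told apart.

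*Anxa5* (chr3:36448923-36475894, minus strand) had 788, 722 and 655 normalised counts in control, 588, 562 and 743 with DEX, 909, 1181 and 663 at 1 week and 686, 769 and 779 at 4 weeks. The groups overlapped in every comparison. The mean was lowest with DEX, at 631 ± 97.8 (SD, n = 3), and highest at 1 week, at 918 ± 259. The log2 fold change between these groups was 0.51 (SE 0.288, -0.10 to 1.12, limma adjusted p = 0.559), and 0.31 without pool 2 of the 1 week group. Against control, the difference with DEX was -0.20 (-0.81 to 0.41) and that at 4 weeks 0.05 (-0.56 to 0.66). With 5963 to 10012 reads per library, the counting error of *Anxa5* was small. Its interval reflects the spread between pools, which limma draws towards that of genes at a similar level.

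*Anxa6* (chr11:54979108-55033445, minus strand) and *Anxa11* (chr14:25842156-25886804, plus strand), an annexin with a long N terminus that carries RNA granules on lysosomes, shared their highest and their lowest library. *Anxa6* had 251, 266 and 185 normalised counts in control, 228, 225 and 289 with DEX, 249, 461 and 147 at 1 week, and 206, 292 and 253 at 4 weeks. *Anxa11* had 3.15, 4.01 and 2.39 in control, 3.15, 3.43 and 6.17 with DEX, 3.61, 8.16 and 1.78 at 1 week and 3.33, 3.83 and 2.80 at 4 weeks. For both, pool 2 of the 1 week group was the highest of the 12 libraries and pool 3 of the same group the lowest. Pool 2 was also the library whose size was scaled down the most, by a factor of 0.702 against 0.993 in pool 3. Differences at 1 week therefore turned with the pool left out. The log2 fold change of *Anxa6* against control was 0.15 (-0.57 to 0.88) with all pools, -0.27 without pool 2 and 0.55 without pool 3. For *Anxa11* it was 0.27 (-0.83 to 1.36), -0.28 and 0.78. The opposite strand of *Anxa11* carries *Anxa11os*, which shares 113 exon bases (2.73% of the *Anxa11* exons) and had a mean of 1.11.

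*Anxa7* (chr14:20455260-20480133, minus strand), or synexin, which promotes the fusion of chromaffin granules, was the steadiest member, with a coefficient of variation of 11.7% over the 12 libraries against 19.4% to 46.5% for the other 7. It had 112, 112 and 89.2 normalised counts in control, 114, 108 and 110.1 with DEX, 96.6, 104 and 85.5 at 1 week and 93.3, 87.9 and 82.7 at 4 weeks. All pools at both recovery times lay below all DEX pools. Compared with DEX, the log2 fold change was -0.22 at 1 week (SE 0.206, -0.66 to 0.21, limma adjusted p = 0.767) and -0.33 at 4 weeks (-0.77 to 0.10, limma adjusted p = 0.673), each with an exact permutation p of 0.1. These intervals carry limma's moderated spread and do not rest on the pools of *Anxa7* alone. The 1 week value was -0.15 without pool 3 of that group. It was the only member with a lower mean than control at 4 weeks, by -0.24 (-0.68 to 0.20).

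Taken by comparison, the 8 members had the following counts beside those of all genes tested. With DEX against control, limma called 0 of 8 by adjusted p (0.121% of all genes) and 0 of 8 by unadjusted p (6.8%), and 0 of 8 had groups that did not overlap (12.8%). At 1 week against control these were 0 of 8 (0%), 0 of 8 (3.79%) and 0 of 8 (6.08%), and at 4 weeks against control 0 of 8 (0%), 1 of 8 (6.35%) and 2 of 8 (13.2%). Control pools were shared by these comparisons, which are therefore not independent.
The median log2 fold change of the members was 0.08 with DEX, 0.22 at 1 week and 0.14 at 4 weeks, where the median over all genes was -0.02, 0.002 and 0. Positive values were found in 5, 7 and 7 of the 8. At 1 week the members' median was 0.07 without pool 2 and 0.42 without pool 3.

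Against the DEX group, limma called 0 of 8 at 1 week by adjusted p (0.433% of all genes) and 0 of 8 by unadjusted p (10.8%), and 1 of 8 did not overlap (13.8%). At 4 weeks against DEX, 0 of 8 passed the adjusted (0.873%) and 1 of 8 the unadjusted threshold (9.94%), and 3 of 8 did not overlap, *Anxa2* and *Anxa4* higher and *Anxa7* lower (19.5%). Between 4 weeks and 1 week, the counts were 0 of 8 adjusted (0%), 0 of 8 unadjusted (5.47%) and 0 of 8 apart (8.92%). The members' medians were 0.10, 0.38 and -0.002 on the log2 scale in these comparisons, beside 0.03, 0.002 and -0.02 for all genes. Without pool 2 of the 1 week group, the first and last of these medians were 0.19 and 0.33, and without pool 3 they were 0.44 and -0.16. Among 8 genes a count of 1 lies near these background shares, and the count of 3 was not tested against its own.

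**Figure D3:**
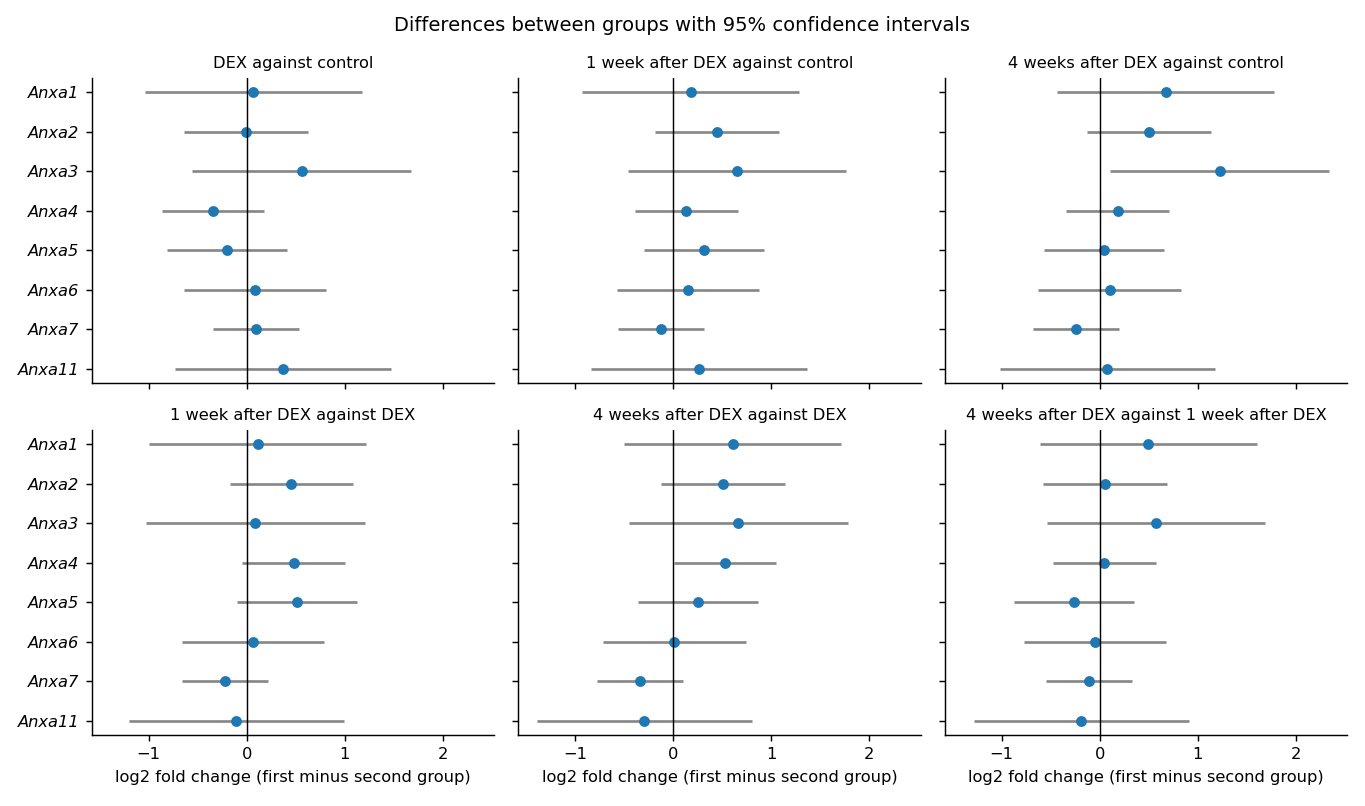
Log2 fold change of each annexin gene in each of the 6 comparisons, first named group minus second, with 95% confidence intervals from limma as grey lines and a vertical line at 0. Of the 48 intervals, 46 crossed 0, and the 2 that did not were *Anxa3* at 4 weeks against control and *Anxa4* at 4 weeks against DEX.

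In the 4 week group, where *Anxa2* and *Anxa3* lay above control, the summed markers of endothelial cells and of pericytes and fibroblasts also lay above all control pools. Endothelial cells, fibroblasts and macrophages make several annexins themselves, which is why their markers are given here. At 4 weeks against control, 13.2% of all genes tested did not overlap in either direction, a share that stands beside the counts that follow. The summed level of 10 endothelial markers was 10.9 to 83.4 in control, 7.12 to 12.8 with DEX, 32.8 to 209 at 1 week and 88.1 to 167 at 4 weeks, and 5 of the 10 lay above all control pools at 4 weeks. For 10 markers of pericytes and fibroblasts the sums were 99.1 to 162, 78.2 to 121, 91.5 to 232 and 191 to 303 in the same order, with 7 of 10 above control at 4 weeks. For 10 markers of macrophages and other leukocytes they were 64.4 to 139.8, 28.4 to 42.5, 103 to 166 and 109.9 to 235, with 3 of 10 above control at 4 weeks. Single genes set much of the first 2 sums. At 4 weeks, *Plvap* had a mean of 72.4 beside 138 for the endothelial sum. *Col1a2* had 190 beside 259 for the sum of pericytes and fibroblasts.
Against the DEX group, where *Anxa2* and *Anxa4* also lay higher at 4 weeks, 10 of 10 endothelial, 8 of 10 pericyte and fibroblast and 6 of 10 macrophage markers lay above all DEX pools, and limma called 5, 3 and 1 of them as higher. Of all genes tested, 19.5% did not overlap and 0.873% were called in this comparison, in either direction. Markers of the other hormone cells of the pituitary are given as well. For these 12 genes the sums were 113962 to 308630 in control, 117380 to 175853 with DEX, 139824 to 337238 at 1 week and 245020 to 393359 at 4 weeks. These sums overlapped between control and 4 weeks. They were mostly *Gh* and *Prl*, with means of 211222 and 98180 at 4 weeks beside 316515 for the sum. Limma's F test called 0 of the 12, and with DEX against control 5 of 12 had a positive log2 fold change. At 4 weeks, 4 of 12 lay above all control pools (13.2% of all genes) and 6 of 12 above all DEX pools (19.5%). Against DEX, limma called *Tshb*, the thyrotropin subunit gene (41.8 to 257 with DEX and 442 to 709 at 4 weeks, adjusted p = 0.0290). *Pecam1*, an endothelial adhesion molecule, was at 0.0787 to 2.07 in control and 4.24 to 12.2 at 4 weeks. The part of these cells in the values of *Anxa2*, *Anxa3* and *Anxa4* was not tested.

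**Figure D4:**
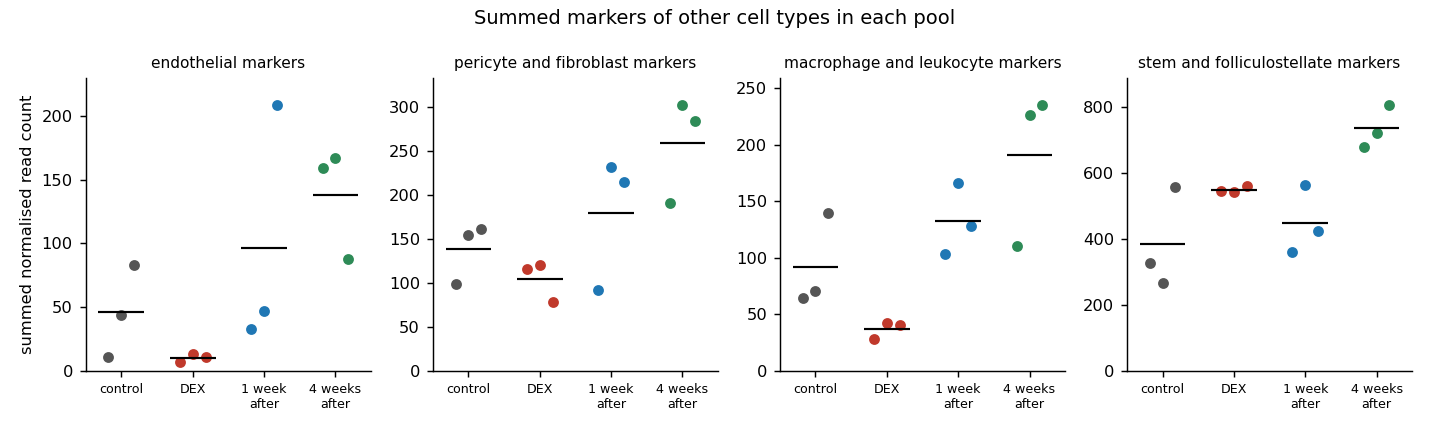
Summed normalised read count of 4 lists of markers of other cell types in each pool, with 3 points per group and a line at the group mean. The DEX pools held between 7.12 and 12.8 of endothelial markers, and the 4 week pools between 88.1 and 167.

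Folliculostellate cells, the classical pituitary source of annexin A1, were followed by 12 markers shared with stem cells. Their sum was 265 to 558 in control, 543 to 559 with DEX, 360 to 562 at 1 week and 678 to 806 at 4 weeks. At 4 weeks, 3 of 12 lay above all control pools, where 13.2% of all genes did not overlap in either direction. *S100b*, the defining folliculostellate marker, was nearly absent, with at most 0.556 normalised counts and 0 in at least 1 pool of every group. *Gfap* was at most 0.572. Other markers of the list were abundant, among them *Cyp2f2*, with group means of 144, 266, 169 and 329 in the same order, and *Aldoc*, with 84.1, 111, 113 and 178. *Vim* was lowest with DEX, at 20.9, 8.32, 34.6 and 14.5. Limma called 0 of the 12 in every comparison. At an unadjusted p under 0.05, 4 were higher at 4 weeks against control (6.35% of all genes), and 3 were higher and 2 lower with DEX against control (6.8%). Their part in the *Anxa1* values was not tested.

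The other 4 annexins of the table were scarce. *Anxa9*, the most abundant of them, had group means of 1.63 ± 0.871, 1.43 ± 0.702, 1.77 ± 0.718 and 1.2 ± 0.562 normalised counts (SD, n = 3) in control, DEX, 1 week and 4 weeks. *Anxa13* had 5, 1 and 11 reads in the DEX pools and 1 read in all 6 recovery pools together (limma F test, adjusted p = 0.487). *Anxa8* had at most 4 reads and none in the 6 recovery pools, and *Anxa10* had 1 read in a single control pool. A count of 0 allows up to 3 reads, which is 0.236 to 0.382 normalised counts depending on the library and covers counting error only.

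The receptors of annexin A1 were at or near 0. *Fpr1* reached at most 7 reads, 0.572 normalised counts, in a DEX pool and *Fpr2*, through which annexin A1 acts on leukocytes, at most 2 reads in a library. *Fpr3* and 4 further members of the receptor cluster, *Fpr-rs3*, *Fpr-rs4*, *Fpr-rs6* and *Fpr-rs7*, had no read in any library, so they were below 0.236 to 0.382. Only *Fpr1* and *Fpr2* of the 7 genes passed the filter, and limma called neither in the F test (adjusted p = 0.999 and 0.823).

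Among the partners of annexins, the S100 genes came nearest to a call by limma. S100 proteins are small dimers that clasp the N termini of annexins: S100A10 pairs with annexin A2 and S100A11 with annexin A1. *S100a10* had 77, 81.8 and 96.9 normalised counts in control, 73.9, 64.1 and 50.9 with DEX, 95.7, 111 and 122 at 1 week and 96.0, 91.9 and 82.3 at 4 weeks. *S100a11* had 34.0, 43.6 and 57.7 in control, 33.5, 34.0 and 38.8 with DEX, 61.2, 74.6 and 71.5 at 1 week and 56.5, 56.3 and 53.8 at 4 weeks. For both genes the DEX group had the lowest mean, the 1 week group the highest, and the pools at both recovery times lay above all DEX pools.
From DEX to 1 week, *S100a11* differed by 0.96 on the log2 scale (SE 0.233, 0.46 to 1.45) with an adjusted p of 0.0818 by limma, 0.094 by edgeR's quasi-likelihood test and 0.00286 by DESeq2. The same difference of *S100a10* was 0.80 (SE 0.223, 0.33 to 1.28) with an adjusted p of 0.131 by limma and 0.0139 by DESeq2. The call therefore depended on the tool. With each library left out in turn, the difference stayed between 0.90 and 1.04 for *S100a11* and between 0.66 and 0.93 for *S100a10*. Over the 4 groups, limma's F test gave adjusted p = 0.223 for *S100a11* and 0.382 for *S100a10*, and DESeq2 0.0133 and 0.0831. The annexin partners differed from DEX to 1 week by 0.46 (*Anxa2*, -0.17 to 1.09, with 0.21 without pool 2 of the 1 week group) and 0.11 (*Anxa1*, -0.99 to 1.22, with -0.08 without pool 3), and whether partner and annexin differed from each other was not tested.
Of the 5 S100 genes listed, limma called 0 in each of the 6 comparisons and in the F test. At an unadjusted p under 0.05, 3 were higher at 1 week than with DEX (10.8% of all genes), *S100a10*, *S100a11* and *S100a4*. At 4 weeks 3 were higher (9.94%), *S100a10*, *S100a11* and *S100a6*. *S100a4* had 5, 4 and 11 reads at 1 week and 0 in each DEX pool (adjusted p = 0.0914 by limma and 0.0247 by edgeR's likelihood ratio test). From DEX to 1 week, 6 of 10 endothelial, 5 of 10 pericyte and fibroblast and 5 of 10 macrophage markers also lay above all DEX pools (13.8% of all genes did not overlap). Limma called 1 of each list higher (0.433% of all genes). Their part in the S100 values was not tested.

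**Figure D5:**
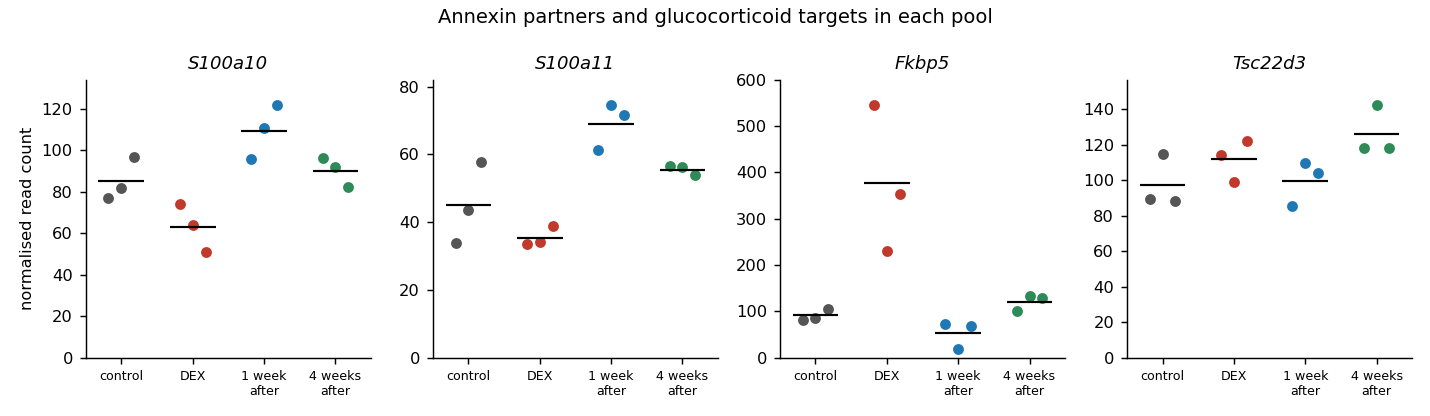
Normalised read count of the annexin partners *S100a10* and *S100a11* and of the glucocorticoid targets *Fkbp5* and *Tsc22d3* in each pool, with 3 points per group and a line at the group mean. *S100a11* lay between 33.5 and 38.8 in the DEX pools and between 61.2 and 74.6 in the 1 week pools, and *Fkbp5* was highest in the 3 DEX pools.

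Other genes around the annexins gave 0 calls by limma, by both edgeR tests and by DESeq2. Of 8 further partners, among them the scaffold gene *Ahnak*, the membrane repair gene *Dysf* and the annexin A7 and A11 partners *Sri* and *Pdcd6*, 1 had an unadjusted p under 0.05. This was *Abca1*, a lipid transporter, with 65.7 with DEX and 43.4 in control (limma adjusted p = 0.701), a comparison in which 6.8% of all genes had one. *Pdcd6* had group means of 113, 91.4, 118 and 107 in control, DEX, 1 week and 4 weeks. Of 6 genes for enzymes that phosphorylate or dephosphorylate annexins, 2 had an unadjusted p under 0.05 at 4 weeks against control (6.35% of all genes). These were *Prkcd*, with 9.35 ± 1.62 in control and 14.6 ± 2.54 at 4 weeks (limma adjusted p = 0.754), and *Prkcb*, with 9.31 ± 6.71 and 18.3 ± 2.71 (limma adjusted p = 0.769). *Prkcb* also had an unadjusted p under 0.05 at 4 weeks against 1 week (5.47% of all genes). Of 6 genes for phospholipase A2 enzymes and enzymes that make eicosanoids from their product, *Pla2g4a*, *Alox5* and *Ptges* had an unadjusted p under 0.05 in at least 1 comparison, with limma adjusted p of 0.462 to 1. The share of all genes with one was 3.79% to 10.8%, depending on the comparison. *Pla2g4a*, the cytosolic phospholipase that annexin A1 inhibits, was at most 1.53 in any library. *Ptgs2*, the inducible cyclooxygenase, had means of 9.56 ± 8.70, 5.26 ± 3.88, 4.70 ± 2.71 and 3.72 ± 0.538.

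Across the 12 libraries, 15 of the 28 pairs of members had a positive Pearson correlation of log2 values, so the 8 genes did not vary as a block. The highest was that of *Anxa6* with *Anxa11* (r = 0.919, Spearman's rho = 0.783), and without pools 2 and 3 of the 1 week group, the highest and lowest of both, r was 0.724. *Anxa5* and *Anxa6* had r = 0.747, and 0.51 without these pools. The points share the library and its scaling, and these coefficients are a description. Among 15756 other genes with a mean of at least 1, those most like *Anxa1* over the 12 libraries were *Serpinb6b* (r = 0.831), *Vdr* (0.815) and *Dock5* (0.812). *Anxa5* was most like *Tuba1b* (0.971), *Surf4* (0.968) and *Qpctl* (0.963), and *Anxa6* most like *Wars* (0.985), *Elp3* (0.974) and *Myo1c* (0.969). For *Anxa2* these were *Ostf1* (0.901), *Mfsd13a* (0.887) and *Pold2* (0.877), for *Anxa3* *Cldn14* (0.886), *Otud7b* (0.847) and *Ccl28* (0.834), and for *Anxa4* *Atp1b3* (0.919), *Cldn1* (0.897) and *Fam13c* (0.891). *Anxa7* was most like *Cnot10* (0.935), *Rabgef1* (0.921) and *Gcc1* (0.921), and *Anxa11* most like *Anapc2* (0.965), *Mars* (0.959) and *Wfs1* (0.957). No member was among the 3 genes most like another member.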

How the data were processed

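The authors trimmed the reads (Trim Galore 0.6.5), aligned them to GRCm38 (STAR 2.7.1a) and counted read pairs on genes (featureCounts 2.0.0) with a strand-specific setting, although the amplification and library kits did not mark strand, so that reads of the other strand may be uncounted. The deposited signal per gene is CPM of an effective library size scaled by edgeR. Its column sums, 823964.5 to 1423897.2, showed that it is not plain CPM. All 271881 values above 0 were whole reads within 1e-04, and the median depth was 10227503.5 reads on genes. Amplified reads without molecular identifiers carry more error than counting error.

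Computed here were limma 3.58.1 fits (R 4.3.3) to log2(value + 0.1) of 24736 genes, eBayes with trend, all 12 libraries in 1 model, an F test and 6 comparisons, with Benjamini-Hochberg adjustment over all genes. Fold changes are on that scale, which understates those of low genes. edgeR 4.0.16 and DESeq2 1.42.0 were run on the recovered reads. The design had taken the values for plain CPM, and the limma test was kept. Single genes were compared by two-sided exact permutation tests of the group means. Exon lengths are the union of GENCODE exons of GRCm38, and the symbol of each member matched 1 gene. The scripts were tested on simulated data. None of the 12 pairs of libraries within a group held identical values (chi-square of 11.8 to 98.4 per gene).

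The members, gene lists and comparisons were chosen with earlier results of these data known. Named were all members and other annexins, listed genes the text turns on, and for each member the 3 genes with the highest correlation. *Prkcb*, *Prkcd*, *Pdcd6*, *Abca1*, *Zbtb16*, *Mt1*, *Mt2*, *Nfkbia*, *Tshb*, *S100a4*, *S100a6*, *Alox5* and *Ptges* were picked out of their lists after their values were seen. So were *Tbx19*, *Avpr1b*, *Prl*, *Cyp2f2*, *Aldoc*, *Vim*, *Plvap* and *Col1a2*. Alternatives covered the pseudocount, filter, scaling, weights, moderation, tool, replicate block and each library left out.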

Additional observations from a re-analysis of the deposited data

How the results depend on the processing

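The count of members called was 0 in each of the 6 comparisons under all 12 alternatives. In the F test it was 0 under the 11 alternatives that keep all 4 groups. It was also 0 in all 12 fits that left out a library (range 0 to 0), and with the replicate block it was 0 as well. Over these alternatives the lowest adjusted p of a member was 0.11 (*Anxa3* at 4 weeks against control, limma with array weights). The lowest was 0.31 when a library was left out. Of the 48 log2 fold changes of members, 19 were at least 1 SE from 0, and 0 of them changed sign under any alternative. Of the 29 closer to 0, 20 changed sign at least once. The number of genes called over all genes moved far more: 78 in the F test, from 68 without a filter to 1069 with array weights and from 7 to 186 when a library was left out. With DEX against control it was 30 (24 to 272, and 2 to 66 without a library). At 4 weeks against DEX it was 216 (155 to 1300, and 19 to 402), and at 1 week against DEX 107 (13 to 710, and 7 to 201). Where limma called 0 genes, at 1 week and 4 weeks against control and between them, the other fits called up to 51, 186 and 165. For *S100a11* from DEX to 1 week, 2 of 11 alternatives passed the threshold (array weights and DESeq2), and for *S100a10* 1 of 11 (DESeq2). At 4 weeks against DEX, *S100a11* passed in 1 of 11 (array weights, limma adjusted p = 0.0233) and *S100a10* in 0 of 11. These were added after seeing the data. The cause of these differences was not tested.

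Nothing in the labels says what a pool number stands for, and the libraries were not treated as paired, since not every pair correlated above 0.1. Of 18 pairs with the same number, deviations from the group means correlated by -0.294 to 0.397, 7 were above 0.1, and 8 of 12 libraries correlated best with their own number, a hint from the data that numbers may be shared. Pool 1 had the highest sum of glucocorticoid targets and the lowest of other pituitary hormone markers in 4 of 4 groups. Few genes set the first sum: in control, *Mt1* had a mean of 4334 beside 7816 for the sum. Single targets did not all follow it. *Fkbp5* was highest in pool 1 with DEX and at 1 week, but lowest there in control and at 4 weeks. *Tsc22d3* was not highest in pool 1 of any group. The replicate block moved the F test count from 78 to 85 genes and called 0 members. Depth limits *Anxa1*, *Anxa3* and *Anxa11*, with 10 to 86 counted reads per library.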
